A study of Mus musculus with 4 samples.

Results

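The genes described here make cholesterol and fatty acids, and they comprise a list of 36 genes. The sterol arm has 18 genes, 8 from acetyl-CoA to squalene and 10 from squalene to cholesterol. A further 5 genes control the SREBP transcription factors, 3 move sterols within or out of cells, and the fatty acid arm has 10 genes. Every non-control probe whose RefSeq accession maps to one of these genes was taken, which gave 56 probes for 35 of the 36 genes. No probe was mapped to Idi1, the isopentenyl diphosphate isomerase, so it was not measured here. All 56 probes passed the filter on dim probes, and the 35 genes were among 21754 genes tested.

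RNA of mouse D3 embryonic stem cells, an established line, was compared between control cells and cells given siRNA against Pnpla6, the gene of neuropathy target esterase (NTE), an enzyme of the endoplasmic reticulum that breaks down phosphatidylcholine. The siRNA was delivered with lipofectamine RNAiMAX, and the cells then grew as embryoid bodies. LIF, a cytokine that keeps such cells undifferentiated, was left out of the medium. RNA was taken at 24 h and at 96 h, and 2 arrays per time each carried control and silenced RNA in opposite dyes, swapped between replicate 1 and replicate 2. What the control cells received, and whether the replicates came from separate cultures, the labels do not say. The p-values therefore rest on a spread between arrays that may be technical. That spread is largely shared over genes. It leaves out differences between replicate 1 and replicate 2 common to both times, which a dye term takes up. The 4 groups of RNA are thus control and silenced cells at 24 h and at 96 h, all of the same line and all differentiating without LIF.

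Cholesterol is built from acetyl-CoA through mevalonate, farnesyl diphosphate and squalene, and lanosterol is then trimmed in several steps. The SREBP transcription factors switch on most genes of this route when membranes of the endoplasmic reticulum hold little sterol, while INSIG proteins hold SCAP and SREBP back when sterol is plentiful. SREBP-1 acts more on fatty acid synthesis and SREBP-2 more on sterol synthesis, and the liver X receptors, sensors of oxysterols, turn on sterol export genes such as Abca1.

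The promoters of a few members are shown because SREBP acts on many sterol genes together with NF-Y, which binds CCAAT. The members printed are the most strongly lowered and raised genes of the module that passed at 96 h and have an entry. Msmo1 and Hmgcs1, a textbook SREBP target, are the lowered genes, and Abca1 and Acss2, of the fatty acid arm, the raised ones. Each is the RefSeq promoter of GRCm38.p6, 250 bases before to 50 after the start, 5′ to 3′ on the gene's strand. Capitals mark CCAAT on either strand, which reads ATTGG when on the other strand, and the SREBP site TCACNCCAC.
Msmo1, chr8:64733529-64733828, minus strand: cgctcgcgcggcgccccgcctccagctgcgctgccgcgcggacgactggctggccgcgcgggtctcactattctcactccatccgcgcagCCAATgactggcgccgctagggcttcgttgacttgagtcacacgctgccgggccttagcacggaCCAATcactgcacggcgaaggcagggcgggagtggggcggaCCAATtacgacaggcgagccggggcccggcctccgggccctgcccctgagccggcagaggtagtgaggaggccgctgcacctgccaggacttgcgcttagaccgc
Hmgcs1, chr13:119690101-119690400, plus strand: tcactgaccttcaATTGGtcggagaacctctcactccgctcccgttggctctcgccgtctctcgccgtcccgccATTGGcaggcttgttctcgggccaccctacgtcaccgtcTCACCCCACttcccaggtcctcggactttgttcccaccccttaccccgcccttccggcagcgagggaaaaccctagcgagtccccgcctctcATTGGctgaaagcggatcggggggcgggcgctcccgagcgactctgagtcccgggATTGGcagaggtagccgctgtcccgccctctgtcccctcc
Abca1, chr4:53159846-53160145, minus strand: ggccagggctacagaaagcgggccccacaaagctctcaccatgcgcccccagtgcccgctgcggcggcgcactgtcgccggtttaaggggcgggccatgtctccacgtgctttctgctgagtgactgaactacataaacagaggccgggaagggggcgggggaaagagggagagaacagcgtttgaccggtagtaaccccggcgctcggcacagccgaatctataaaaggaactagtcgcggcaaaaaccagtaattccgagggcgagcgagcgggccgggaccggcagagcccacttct
Acss2, chr2:155517793-155518092, plus strand: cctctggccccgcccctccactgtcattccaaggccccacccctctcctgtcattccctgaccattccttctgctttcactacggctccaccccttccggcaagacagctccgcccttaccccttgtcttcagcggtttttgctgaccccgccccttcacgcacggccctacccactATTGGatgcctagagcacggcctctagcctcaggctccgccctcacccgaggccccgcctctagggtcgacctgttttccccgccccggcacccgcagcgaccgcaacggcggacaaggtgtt

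Of the 36 members 28 had an entry among 32851 promoters of 27025 genes. CCAAT was present in 14 of 15 genes of the sterol arm (93.3%), the exception being Acat2, and in 4 of 7 genes of the fatty acid arm (57.1%), against 41.1% of all genes. The Msmo1 window holds 3 copies, Hmgcs1 holds 4, Acss2 holds 1 and Abca1 holds 0. The SREBP site TCACNCCAC, searched on both strands, lay in 1 of 15 sterol genes, Hmgcs1, at position -137 from the start, in 0 of 7 fatty acid genes and in 1.44% of all genes. The GC box GGGCGG, a Sp1 motif, was in 14 of 15 sterol genes and 4 of 7 fatty acid genes, against 38.2% of all genes. No 2 of these motifs share their letters in the printed windows. The base composition of the windows was not matched, and a match is a description of letters.

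Across the arrays, median Cy3 signals were 55 to 63 over a background of 19 to 22, median Cy5 signals were 114 to 130 over 58 to 64, and 62.5 to 68.7% of non-control probes were well above background. Of the 4 arrays, 96 h replicate 2 alone was on the second slide. All 35 measured members were well above background on both arrays of all 4 groups of RNA. The number of arrays limits the precision. The targeted gene Pnpla6 had log2 ratios of silenced to control cells of -0.73 and -1.002 on the 24 h arrays and of 0.12 and -0.11 on the 96 h arrays. It was therefore lower on both arrays at 24 h, by 0.87 on the log2 scale in the fit (limma, Benjamini-Hochberg adjusted p = 2.7e-11), and near control level at 96 h.

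At 24 h, with Pnpla6 low, none of the module's genes passed the test between silenced and control cells. In limma's fit across all genes 0 of 35 members passed an adjusted p under 0.05, against 0.372% of all genes. An unadjusted p under 0.05 was reached by 1 member, Abca1, and a fit of the single channels called 1, also Abca1. The fitted log2 ratios of the 35 members lay between -0.13 and 0.21 with a median of 0.00. On the 2 arrays 25 of the 35 genes had opposite signs, 6 were negative on both and 4 positive on both. The median of the sterol arm was 0.01 and that of the fatty acid arm 0.00.

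At 96 h many genes of the sterol arm were lower in silenced cells and few genes of the fatty acid arm had moved. Of the 35 members 15 passed, 12 lower and 3 higher, against 13.4% of all genes, 6.61% higher and 6.8% lower. In the sterol arm 9 of 17 measured genes fell (52.9%) and 0 rose, with a median log2 ratio of -0.18, and 13 were negative on both arrays. In the fatty acid arm 2 of 10 rose and 0 fell, with a median of 0.08, and 5 were positive on both arrays. The median of all genes was 0.00. The sterol arm was lower on each 96 h array, with a median of -0.22 on replicate 1 of the first slide and of -0.13 on replicate 2 of the second, and 15 of 17 genes negative on each. No test of the arms against each other was made, since genes of a pathway are not independent replicates.

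**Figure D1:**
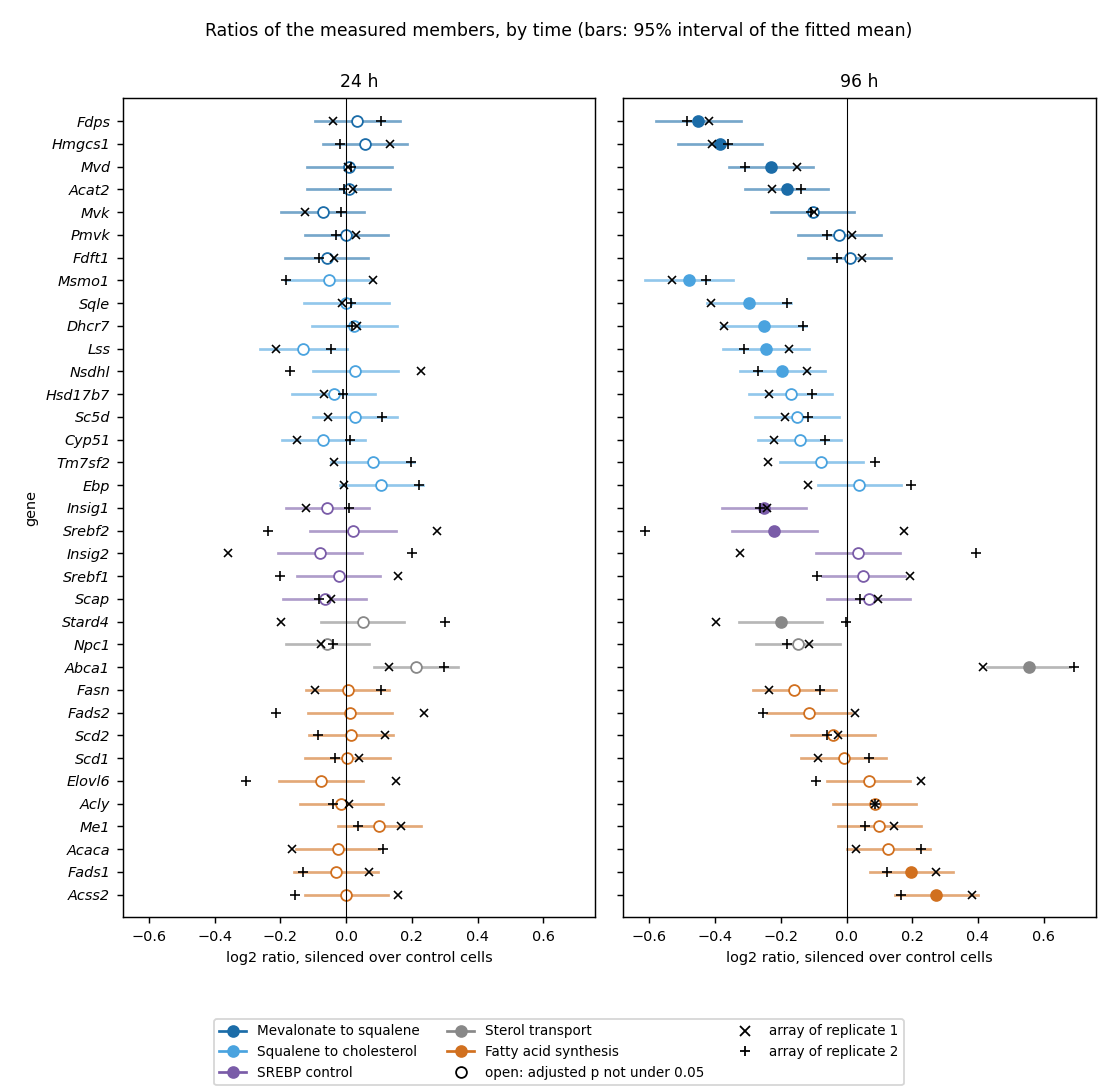
Log2 ratios of silenced to control cells (x axis) for the 35 measured members (y axis), at 24 h (left) and 96 h (right). Crosses and pluses are the 2 arrays, circles the fitted mean with its 95% interval, filled where the Benjamini-Hochberg adjusted p of limma was under 0.05, and colours the groups of genes. At 24 h the fitted means lie between -0.13 and 0.21, and at 96 h 15 of 17 sterol genes lie below 0. The dye term takes up opposite shifts of the arrays, so that for genes such as Srebf2 both arrays lie outside the interval.

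Among the enzymes from acetyl-CoA to squalene, 4 of 7 measured genes fell at 96 h. Fdps, which makes farnesyl diphosphate, had ratios of -0.04 and 0.11 on the 24 h arrays and of -0.42 and -0.48 on the 96 h arrays. Both 96 h arrays were thus well below both 24 h arrays, and the fitted difference at 96 h was -0.45 (SE 0.063, 95% interval -0.58 to -0.32, 1.37-fold lower, limma adjusted p = 2.5e-06). Hmgcs1, the HMG-CoA synthase, had 0.13 and -0.02 at 24 h against -0.41 and -0.36 at 96 h, again without overlap. Its fitted difference was -0.39 (SE 0.063, 95% interval -0.51 to -0.26, 1.31-fold lower, limma adjusted p = 3.1e-05).

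Mvd, the mevalonate diphosphate decarboxylase, had ratios of -0.15 and -0.31 at 96 h and of 0.01 on both 24 h arrays, and fell 1.17-fold (limma adjusted p = 0.011). Acat2, the cytosolic acetyl-CoA acetyltransferase, had -0.23 and -0.14 at 96 h and fell 1.13-fold, close to the threshold (limma adjusted p = 0.046). Both enzymes stood near 0 on the 24 h arrays. The 3 remaining genes did not pass: the kinases Mvk, at -0.10, and Pmvk, at -0.02, and Fdft1, the squalene synthase that commits farnesyl diphosphate to sterols, at 0.01. In this fit the 95% interval of Fdft1, -0.12 to 0.14, leaves out a fall of the size of Fdps, and that of Pmvk, -0.15 to 0.10, does too. Both intervals depend on the dye term and on a spread largely shared over genes. A second probe of Pmvk stood at -0.11, with -0.09 and -0.12 on the 96 h arrays.

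From squalene onward 5 of 10 genes fell at 96 h and 8 were negative on both arrays. Msmo1, the methylsterol oxidase that removes methyl groups from lanosterol-derived sterols, had the lowest fitted ratio of the module. Its ratios were 0.08 and -0.18 at 24 h and -0.53 and -0.43 at 96 h, so the 96 h arrays lay below both 24 h arrays. The fitted difference at 96 h was -0.48 (SE 0.066, 95% interval -0.61 to -0.35, 1.39-fold lower, limma adjusted p = 1.6e-06). Sqle, the squalene epoxidase and a rate-limiting step, had -0.01 and 0.01 at 24 h and -0.41 and -0.18 at 96 h. It fell 1.23-fold, with the larger shift on replicate 1 (SE 0.063, limma adjusted p = 0.001).

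The other 3 calls in this stretch were smaller. Dhcr7, the last reductase of one branch, had -0.37 and -0.13 at 96 h and fell 1.19-fold (limma adjusted p = 0.0055). Lss, the lanosterol synthase, had -0.18 and -0.31 and fell 1.18-fold (adjusted p = 0.008), and its 24 h ratios of -0.21 and -0.05 were also negative. Nsdhl, a sterol dehydrogenase, had -0.12 and -0.27 at 96 h after 0.23 and -0.17 at 24 h, and fell 1.14-fold (adjusted p = 0.036). All 3 were thus below 0 on both 96 h arrays, and only for Dhcr7 did both lie below both 24 h arrays.

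Of the 5 genes that did not pass, 3 had a 95% interval below 0 without an adjusted p under 0.05: Hsd17b7 at -0.17 (adjusted p = 0.066), Sc5d at -0.15 (0.11) and Cyp51, the lanosterol demethylase, at -0.14 (0.14). Tm7sf2, a sterol reductase, stood at -0.08 and Ebp, a sterol isomerase, at 0.04, each with opposite signs on the 2 arrays.

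Among the controllers of SREBP, Insig1 fell at 96 h by its tested probe, and the other genes gave no uniform picture. Insig1, which retains SCAP and is itself a target of SREBP, had -0.12 and 0.01 at 24 h and -0.24 and -0.26 at 96 h, and fell 1.19-fold (SE 0.063, limma adjusted p = 0.0048). Srebf2, which encodes SREBP-2, passed at -0.22 (adjusted p = 0.018), but its arrays had opposite signs, 0.17 and -0.61, as they did at 24 h, 0.28 and -0.24. Without 96 h replicate 2 its value was 0.175. Insig2 had -0.32 and 0.39 at 96 h, and -0.36 and 0.20 at 24 h, a difference between the dye orientations at both times, and a fitted value of 0.04. Srebf1, at 0.05, and Scap, the escort of SREBP, at 0.07, did not pass.

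The 3 transport genes went different ways at 96 h. Abca1, the membrane exporter of cholesterol to apolipoprotein A1, rose more than any other member. Its ratios were 0.13 and 0.30 at 24 h and 0.42 and 0.69 at 96 h, positive on all 4 arrays, with the 96 h arrays above the 24 h arrays. The fitted value was 0.21 at 24 h (adjusted p = 0.16) and 0.55 at 96 h (SE 0.062, 95% interval 0.43 to 0.68, 1.47-fold higher, limma adjusted p = 3.1e-08). Stard4, a cytosolic sterol carrier, had -0.20 and 0.30 at 24 h and -0.40 and 0.00 at 96 h. Its call at 96 h, -0.20 (adjusted p = 0.027), therefore rests on replicate 1, and without that array the value was -0.0021. Npc1, the lysosomal cholesterol exporter, stood at -0.15 and did not pass (adjusted p = 0.12).

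In the fatty acid arm Acss2 and Fads1 rose at 96 h, and the central synthases did not pass. Acss2, which makes acetyl-CoA from acetate, had 0.16 and -0.16 at 24 h and 0.38 and 0.17 at 96 h. Both 96 h arrays were positive and above both 24 h arrays, and the fitted rise was 1.21-fold (0.27, SE 0.062, limma adjusted p = 0.0021). Fads1, the delta-5 desaturase, had 0.07 and -0.13 at 24 h and 0.27 and 0.12 at 96 h, and rose 1.15-fold (0.20, adjusted p = 0.029).

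Fasn, the fatty acid synthase, had -0.24 and -0.08 at 96 h and a fitted value of -0.16, with a 95% interval of -0.28 to -0.03 and an adjusted p of 0.091. Fasn therefore sat with the sterol genes in sign and short of the threshold. Acaca, the acetyl-CoA carboxylase that feeds it, was at 0.13, Acly, the ATP citrate lyase, at 0.09, and Me1, the malic enzyme that supplies NADPH, at 0.10. The desaturases Scd1, at -0.01, Scd2, at -0.04, and Fads2, at -0.11, and the elongase Elovl6, at 0.07, did not pass either. For Scd1 the interval of this fit, with its dye term and largely shared spread, was -0.14 to 0.12. A shift as large as that of Msmo1 lies outside it.

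The calls at 96 h depend on the dye term, since dye orientation follows the replicate number and so acts as a replicate block. In every setting of this paragraph the share of all genes that passed fell as well. It was 13.4% in the main fit, 4.67% at an offset of 16 and 0% with the authors' log ratios. Without the dye term 0 of 35 members passed (11 with an unadjusted p under 0.05), against 0.487% of all genes. Leaving out any 1 of the 4 arrays, which forces that term out, also left 0 (7 to 10 unadjusted), and so did the authors' own log ratios with the same fit (14 unadjusted), while an offset of 16 in the background correction left Abca1, Fdps, Hmgcs1 and Msmo1.

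Several members were read by more than 1 probe, and these probes were compared at 96 h. In 13 of 16 such genes all probes had the same sign, and so they did in all 8 called genes with several probes. The other probe of Lss gave -0.23 beside -0.24 for the tested probe, that of Dhcr7 -0.22 beside -0.25, and that of Acss2 0.23 beside 0.27. These pairs were close. For Hmgcs1 the second probe gave -0.07 beside -0.39, and for Insig1 -0.07 beside -0.25, so the size of the fall there depends on the probe. The second Insig1 probe had -0.19 and 0.06 on the 96 h arrays. With the mean over its probes Insig1 did not pass (-0.16, limma adjusted p = 0.089). For Stard4 the others gave 0.00 and -0.08 beside -0.20. Signs differed for Hsd17b7 (0.07 beside -0.17), Mvk (0.02 beside -0.10) and Insig2 (-0.01 beside 0.04), none of which passed. The other 7 called genes, Fdps, Msmo1, Sqle, Mvd, Acat2, Fads1 and Abca1, had 1 probe each.

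**Figure D2:**
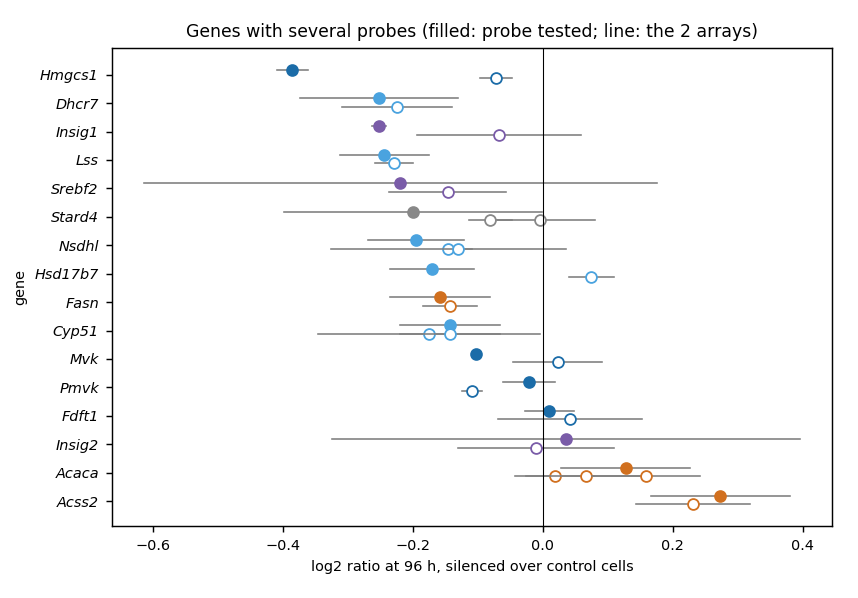
Log2 ratios of silenced to control cells at 96 h (x axis) for each probe of the 16 members with several probes (y axis). Circles are means of the 2 arrays, filled for the probe that was tested, grey lines join the 2 arrays, and colours are the groups of genes. The 2 Hmgcs1 probes stand apart, at -0.39 and -0.07, while those of Lss and Dhcr7 lie close together.

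The silencing effects at 24 h and 96 h were then compared directly. Of the 35 members 5 differed, 4 of them lower and 1 higher at 96 h than at 24 h, against 6.92% of all genes, 4.1% lower and 2.83% higher. The 4 lower genes were all of the sterol arm. The difference, 96 h minus 24 h, was -0.49 for Fdps (95% interval -0.67 to -0.30, limma adjusted p = 0.00034), -0.44 for Hmgcs1 (-0.63 to -0.26, 0.001), -0.43 for Msmo1 (-0.62 to -0.24, 0.0023) and -0.30 for Sqle (-0.48 to -0.12, 0.036). Abca1 moved the other way, by 0.34 (0.16 to 0.52, 0.012). The second Hmgcs1 probe gave -0.11 at 24 h and -0.07 at 96 h, so the difference of Hmgcs1 rests on the tested probe. With the mean over the probes of a gene, Abca1, Fdps and Msmo1 passed and Hmgcs1 did not. Of the sterol arm 16 of 17 genes had a negative difference, with a median of -0.18, and of the fatty acid arm 5 of 10, with a median of 0.05. Dhcr7 (-0.28, adjusted p = 0.057) and Acss2 (0.27, 0.055) lay just outside the threshold. Over all genes the share that differed was 0% without the dye term, 1.25% at an offset of 16 and 0% with the authors' log ratios. Without the dye term, without any 1 array, with an offset of 16 or with the authors' log ratios 0 members passed here, and 4 to 10 had an unadjusted p under 0.05.

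Most of the module fell between 24 h and 96 h, in control as in silenced cells. The levels of the 4 groups of RNA come from the single channels of the same arrays, so the 2 time courses and the silencing effects share their measurements and are given side by side. In control cells 24 of 35 members passed between 24 h and 96 h, 21 lower and 3 higher, against 36.8% of all genes, 18.9% lower and 17.9% higher. In silenced cells 29 passed, 24 lower and 5 higher, against 37.8% of all genes, 19.7% lower and 18.1% higher. In the sterol arm 13 of 17 genes fell in control cells, with a median change of -0.55, and 15 of 17 in silenced cells, with a median of -0.87. In the fatty acid arm 6 fell and 2 rose in each, with medians of -0.42 and -0.33. The median of all genes was -0.03 in both.

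The log2 intensity of Msmo1 was 12.42 and 12.39 in control and 12.51 and 12.21 in silenced cells at 24 h. At 96 h it was 11.89 and 11.86 in control and 11.36 and 11.43 in silenced cells. The 4 channels at 24 h were the highest, and at 96 h both silenced channels lay below both control channels. Fdps read 11.67 and 11.70 in control and 11.63 and 11.80 in silenced cells at 24 h, then 11.02 and 11.24 in control and 10.61 and 10.76 in silenced cells. Its order was the same as that of Msmo1. From 24 h to 96 h Fdps fell 1.46-fold in control cells (limma single-channel fit, adjusted p = 0.014) and 2.05-fold in silenced cells (adjusted p = 0.0008).

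Hmgcs1 fell over time in silenced cells. It read 12.06 and 12.41 in control and 12.20 and 12.39 in silenced cells at 24 h, and 12.12 and 12.01 in control and 11.71 and 11.64 in silenced cells at 96 h. The control channels of both times overlapped, with a change of -0.18 that did not pass (adjusted p = 0.37), whereas both silenced channels at 96 h were the lowest of the 8 and fell 1.54-fold (adjusted p = 0.01). In control cells Hmgcs1 did pass with the mean over its probes and without 24 h replicate 1. Dhcr7 changed by -0.33 in control cells without passing (adjusted p = 0.12) and by -0.60 in silenced cells (adjusted p = 0.014), a difference between the cells that did not itself pass. Dhcr7 too passed in control cells under some settings, among them the fits without either 24 h array or without 96 h replicate 1.

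Other sterol genes fell over time in both populations. Cyp51 fell 2.07-fold in control and 2.18-fold in silenced cells, Mvk 1.96-fold and 2.01-fold, Ebp 1.93-fold and 2.02-fold, and Lss 1.88-fold and 2.03-fold. Mvd fell 1.95-fold and 2.30-fold, and Nsdhl 1.70-fold and 1.99-fold. Insig1 fell with them, 1.97-fold and 2.26-fold. Tm7sf2, Pmvk, Srebf1 and Srebf2 did not pass in either population with all 4 arrays and the brightest probe. With an array left out, or for Tm7sf2 also with the mean over probes, each but Pmvk passed in at least 1 population.

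Abca1 had the largest fall over time in control cells of all members. It read 8.72 and 8.77 in control and 8.85 and 9.07 in silenced cells at 24 h, then 7.37 and 7.41 in control and 7.79 and 8.11 in silenced cells at 96 h. The 4 groups of RNA did not overlap, and both groups at 96 h lay below both at 24 h. The fall was 2.55-fold in control cells (limma single-channel fit, adjusted p = 0.00011) and 2.02-fold in silenced cells (adjusted p = 0.00042). The ratio was already 0.21 at 24 h, and its increase to 0.55 at 96 h was a smaller fall in silenced cells. Acss2 and Me1 were the genes of the fatty acid arm that rose over time. Acss2 read 8.23 and 8.21 in control and 8.38 and 8.06 in silenced cells at 24 h, and 8.94 and 9.07 in control and 9.32 and 9.24 in silenced cells at 96 h. Acss2 rose 1.72-fold in control and 2.08-fold in silenced cells, again with no overlap of the groups at 96 h.

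The major enzymes of fatty acid synthesis and desaturation fell in both. Scd2 fell 2.27-fold in control and 2.36-fold in silenced cells, Scd1 2.16-fold and 2.17-fold, and Fasn 1.87-fold and 2.09-fold. Acaca fell 1.60-fold and 1.44-fold and Acly 1.35-fold and 1.26-fold. Me1 rose 1.31-fold in each. Fads1 fell 1.33-fold in control cells and its change in silenced cells, -0.19, did not pass (adjusted p = 0.15), though it did without 24 h replicate 2. No array held RNA of both times. Of the 96 h arrays only replicate 1 shared the slide of the 24 h arrays, so the part of the slide was not tested.

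**Figure D3:**
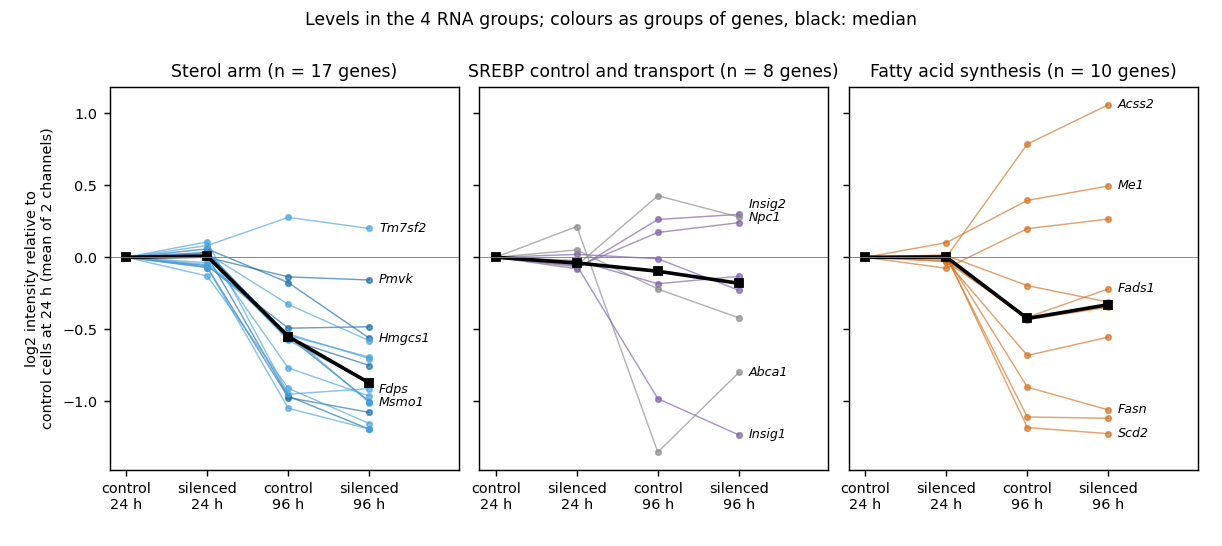
Log2 intensity relative to control cells at 24 h (y axis, mean of 2 channels) in the 4 groups of RNA (x axis) for the sterol arm, the SREBP control and transport genes, and the fatty acid arm. Each coloured line is a gene and the black line the median, and lines join groups only to guide the eye. The sterol median goes from control to silenced cells at 96 h to a lower level and the fatty acid median does not, while Abca1 lies higher in silenced than in control cells at 96 h.

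Other genes of sterol and fatty acid metabolism were taken from lists, again at 96 h and against 6.61% of all genes higher and 6.8% lower. Of 12 genes of the isoprenoid branch, which uses farnesyl diphosphate for prenylation, ubiquinone and dolichol, 0 passed (median -0.01). Of 10 genes of the liver X receptors and sterol export 3 rose and 0 fell (median 0.09). These were Abcg1, a sterol exporter, with ratios of 0.43 and 0.44 on the 2 arrays, Mylip, a ligase that degrades lipoprotein receptors, at 0.22, and Osbp, an oxysterol-binding protein, at 0.20. The receptors themselves, Nr1h3 at -0.02 and Nr1h2 at 0.02, did not pass.

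Of 8 lipoprotein receptors and their partners 3 rose and 2 fell (median -0.05). Cubn, an endocytic receptor of visceral endoderm, rose by 1.05 with 0.82 and 1.27 on the arrays, Lrp1 rose by 0.31 and Amn, the partner of Cubn, by 0.29, while Lrp2 was at -0.25. In 21 further genes around fatty acid synthesis 3 rose and 6 fell (median -0.11). Mid1ip1, an activator of acetyl-CoA carboxylase, had -0.62 and -0.73 and fell 1.59-fold (limma adjusted p = 7.4e-10), more than any member of the module. The acyl-CoA synthetases Acsl5 (-0.45), Acsl4 (-0.41) and Acsl3 (-0.35) fell too, while Acsl1 rose by 0.20, with 0.09 and 0.31 on the arrays. Of 21 genes of fatty acid oxidation 4 rose and 0 fell (median 0.05): Cpt1a, the carnitine acyltransferase, by 0.29, Pdk4 by 0.23, Acads by 0.19 and Acadvl by 0.18. At 24 h 0 genes of these lists passed in limma's fit, against 0.372% of all genes.

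**Figure D4:**
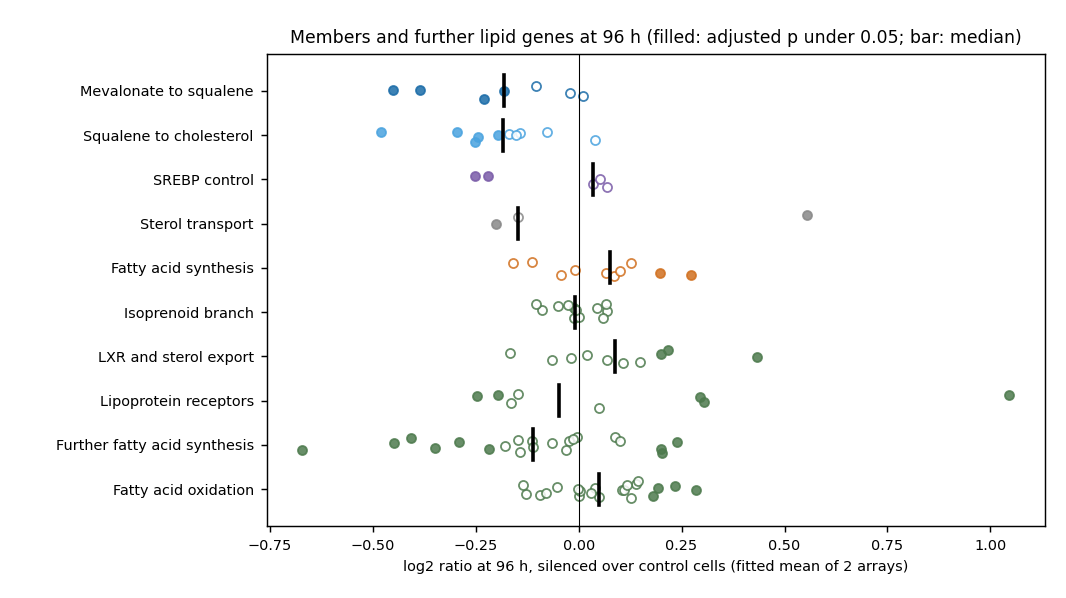
Log2 ratios of silenced to control cells at 96 h (x axis, fitted mean of 2 arrays) for the groups of the module and for lists of further lipid genes (y axis). Each circle is a gene, filled where limma's adjusted p was under 0.05, and bars are medians. Both sterol groups have medians of -0.18, the fatty acid arm 0.08, the further fatty acid synthesis genes -0.11 and the isoprenoid branch -0.01.

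These are bulk samples, in which fewer cells of a type and less RNA per cell cannot be told apart. All 10 markers of embryonic stem cells were above background in all groups of RNA, with mean log2 intensities of 13.4 to 13.7. At 96 h 5 were higher and 1 lower in silenced cells, against 6.61% of all genes higher and 6.8% lower. Of the higher ones Esrrb, Sox2, Zfp42 and Klf4 were positive on both arrays, while Dppa5a had -0.84 and 1.26. The lower one, Pou5f1, had 0.01 and -2.11 on its 2 arrays. At 24 h Pou5f1 passed as higher, at 0.68, with 1.58 and -0.21. Of 13 markers of visceral endoderm 7 were above background on both arrays in control and 9 in silenced cells at 96 h, with mean levels of 6.75 to 6.77 and 6.91 to 6.95, and Ttr, Apoa1 and Apoa4 on neither array. Of the 9 tested, 2 were higher and 0 lower at 96 h. The 2 were Cubn and Amn, which are also among the lipoprotein receptors and partners above. Fitted values were positive for 6 and negative for 3, Gata4 (-0.09), Gata6 (-0.04) and Hnf4a (-0.03). Of 9 fibroblast markers 6 were tested and 4 fell at 96 h, with mean levels of 7.77 to 7.87 in control and 7.54 to 7.55 in silenced cells, and Col3a1, Lum and Postn on neither array above background. Of 8 neural progenitor markers 7 were tested and Nes fell, by 1.02, with mean levels of 8.01 to 8.02 and 7.84 to 7.90, and of 6 tested mesoderm markers 0 passed at 96 h. Of 8 markers of adipocytes and hepatocytes on the array 0 were above background on both arrays at 24 h and 1 at 96 h, and Alb, Fabp4 and Cyp2e1 on no array. The part of these shifts in the levels of the sterol and fatty acid genes was not tested.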

How the data were processed

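The authors labelled 200 ng of RNA per channel, per the labels' protocols, and extracted the scans with Agilent Feature Extraction, version 10.7.1.1 in the headers. The submitters' processing notes also name limma, with no version. The deposited files hold spot and background intensity in arbitrary units and log10 ratios of Cy5 over Cy3, and the authors' series table holds the same log10 ratios turned to silenced over control, within 4.97e-06.

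Files were analysed with R 4.3.3 and limma 3.58.1. The files hold median spot signals, which were corrected with normexp (offset 50) and normalized by loess within arrays, with 1639 of 45018 spots, the controls, at weight 0. The 1 non-uniform spot was left out. Ratios were turned to silenced over control. Probes had to be well above background on both arrays of at least 1 of 4 groups of RNA (28082 of 41174 probes), and the brightest probe of a gene was tested. RefSeq accessions named 24375 probes, and 16799 kept their identifiers.

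Log2 ratios were fitted with a mean per time and a dye term (the replicate number), with 1 residual and 33.1 prior degrees of freedom per gene, so the spread is largely that shared over genes. Time courses used lmscFit on single channels after Aquantile, with a term for the dye and with 0.896 as the intraspot correlation. Tests were two-sided, with Benjamini-Hochberg adjustment over 21754 genes and a threshold of 0.05. Both fits were also run on simulated data with independent array noise and a dye effect equal at both times. Those simulations held no effect of slide or culture, so they do not bear on either. A fold is 2 to the power of the absolute log2 difference. Alternatives were no dye term, offset 16, median centring, the authors' log ratios, no filter, the mean over probes, single channels, quantile normalization and each array left out. The genes named are all members and, of each further lipid list, up to 4 that passed at 96 h by the largest difference. Acsl1, Nr1h3 and Nr1h2 are named besides. 1 further list of sterol genes is not reported here. Members and lists were chosen with earlier results of these data known. Array files and promoter sequences use different genome builds, so no probe coordinates are given.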

Additional observations from a re-analysis of the deposited data

Results flagged for a closer look

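The silencing effect differed between the 2 times in 5 members, by limma's test of the difference itself (96 h minus 24 h, log2 scale). The difference was -0.485 for Fdps (SE 0.09, adjusted p = 0.00034), -0.444 for Hmgcs1 (SE 0.09, adjusted p = 0.001), -0.428 for Msmo1 (SE 0.093, adjusted p = 0.0023) and -0.297 for Sqle (SE 0.09, adjusted p = 0.036). It was 0.341 for Abca1 (SE 0.088, adjusted p = 0.012). For Hmgcs1 the second probe gave -0.11 at 24 h and -0.07 at 96 h, and Hmgcs1 did not pass with the mean over probes. Over 11 alternatives the difference ran from -0.558 to -0.412 for Fdps (adjusted p from 0.000106 to 1), from -0.52 to -0.203 for Hmgcs1 (0.000472 to 0.999), from -0.562 to -0.295 for Msmo1 (0.00103 to 0.999), from -0.412 to -0.182 for Sqle (0.0121 to 1) and from 0.202 to 0.524 for Abca1 (0.00455 to 1).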

How the results depend on the processing

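The number of members called at 96 h, 15, became 0 without the replicate block, that is without the dye term, 4 at offset 16, 7 with median centring, 0 with the authors' log ratios and 24 with single channels, while 14 passed without the filter and 10 with the mean over probes. Leaving out an array, which also drops the dye term, gave 0 to 0. For the difference between times, 5 members passed, against 6.92% of all genes. The count became 0 without the replicate block (0% of all genes), 0 with an offset of 16 (1.25%) and 0 with the authors' log ratios (0%). With the mean over probes 3 passed (4.4%), and with single channels 17 (20.4%). At 24 h, 0 became 1 with single channels, against 2.1% of all genes. The cause of these changes was not tested. The median of the sterol arm at 96 h, -0.183, ran from -0.22 to -0.131 over the alternatives. That of the fatty acid arm, 0.0765, became 0.115 with median centring, 0.0426 with the authors' log ratios, and 0.0568 to 0.0631 without a 96 h array. Srebf2, -0.219, was -0.614 without 96 h replicate 1 and turned sign without 96 h replicate 2, to 0.175, and no other called member of the 15 did. Of all genes 2917 passed at 96 h, and 106 without the replicate block, 1016 at offset 16, 1798 with median centring, 0 with the authors' log ratios (3846 with an unadjusted p under 0.05) and 6558 with single channels. In the time courses, with all 4 arrays kept, 24 members in control and 29 in silenced cells became 23 to 26 and 27 to 29. Over these settings the share of all genes called ran from 24.2 to 45.5% in control and from 24.9 to 46.5% in silenced cells. Arrays of the same replicate number deviated together from their group means (Pearson's r 0.70, Spearman's rho 0.58 across 21754 genes, which are not independent, and the same for both numbers with 2 arrays a time). The number also marks the dye orientation, so a pairing of cultures cannot be told apart from it. A block for the slide could not be fitted with time and dye on 4 arrays.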
